A study of Mus musculus with 4 samples.

Results

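The nuclear genes of the respiratory chain are described here in single vascular smooth muscle cells (VSMCs) of mouse plaques and ligated carotid arteries. All symbols of the deposited tables that begin with Nduf followed by a, b, c, s or v, with Uqcr, with Cox and a digit from 4 to 8, or with Atp5 were taken, with Sdha, Sdhb, Sdhc and Sdhd, and symbols containing -ps were left out. This gave 98 of 34469 symbols. Of these, 39 belong to complex I, 8 to the assembly of complex I, 4 to complex II, 8 to complex III, 20 to complex IV and 18 to complex V. Cox7a2l was placed under complexes III and IV together. All 98 were listed in plaque, and 94 in ligation, where Atp5o, Cox7b2, Cox8b and Cox8c were not listed.

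The respiratory chain lies in the inner mitochondrial membrane. Complexes I and II take electrons from NADH and succinate, complex III passes them on to cytochrome c, complex IV hands them to oxygen, and complex V, the ATP synthase, makes ATP from the proton gradient that complexes I, III and IV build. Most subunits are encoded in the nucleus and the rest on mitochondrial DNA, and several nuclear subunits have a second copy that is used in particular tissues or at low oxygen. In arteries, contractile VSMCs carry the cytoskeletal genes of contraction, and VSMCs that leave this state can turn on matrix and cartilage genes.

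Single-cell RNA-seq (10x Genomics, 3' ends) had been carried out on 1 library per genotype in each of 2 experiments, and the number of mice behind a library is not given in the sources used here. Plaques were dissected from the aorta and carotid arteries of high-fat-fed Myh11-CreERt2/Confetti/ApoE-/- mice (ApoE-/-) and Myh11-CreERt2/Confetti/Sm22a-Trf2T188A/ApoE-/- mice (Trf2T188A/ApoE-/-). Ligated carotid arteries came from adult male SM22a-TRF2T188A mice (Trf2T188A) and wild type littermates (control), 28 days after ligation. Every mouse was on a C57Bl/6 background. By their genotypes both plaque groups lacked ApoE and carried the Confetti reporter, while the labels of the ligation groups list neither. The transgene is a point mutant of TRF2, a telomere-binding protein. It is driven by a minimal Sm22a promoter, and the reporter is switched on by tamoxifen only in cells in which Myh11 drives Cre.

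The libraries held 1502 ApoE-/-, 929 Trf2T188A/ApoE-/-, 4967 control and 5392 Trf2T188A cells. Per the study's methods the plaque cells had been limited to clusters with Confetti markers, and the minimum of genes per cell had been set higher for ApoE-/- than for Trf2T188A/ApoE-/- cells. The fewest genes in a cell were 1531 and 1056, in that order. Median depth was close in plaque, at 22765.5 and 24377 UMIs (unique molecular identifiers, 1 per RNA molecule counted), and differed in ligation, at 8631 in control and 11153 in Trf2T188A. The 2 plaque libraries shared 0 cell barcodes and the 2 ligation libraries 10. Terf2 was read at 0.183 UMIs per 10000 in both plaque libraries and at 0.179 and 0.168 in control and Trf2T188A, and the counts do not tell the transgene from the mouse's own gene. Apoe was read at 0.0454 and 0.0632 UMIs per 10000 in the plaque libraries, both bred without ApoE. Plaque and ligation tables were made with different software versions, so levels are compared within each experiment only.

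Cells were clustered with the members left out of the genes that formed the clusters, and classes were named from marker lists. Contractile-like plaque cells (606 ApoE-/- and 258 Trf2T188A/ApoE-/-) came from 3 clusters, of which 2 had Myl9, Acta2 and Tagln among their leading genes and the other Kcnab1, Myh11 and Mylk4. Fibromyocyte-like cells (163 and 132) were led by Timp1, Spp1 and Thbs1, and chondrocyte-like cells (82 and 63) by Col2a1, Ibsp and Cytl1, with all 12 markers of each list higher than in the other cells. In ligation, contractile-like cells (1631 control and 2307 Trf2T188A) were led by Sparcl1 and Tcap, remodelling-like cells (2042 and 1911) by Igfbp2 and Eln, and de-differentiated-like cells (1093 and 978) by Lum and Gdf10. The marker list of the ligation contractile-like class held none of Myh11, Acta2, Tagln, Cnn1 and Myl9. The actin gene Actg2 was among the leading genes of remodelling-like cells. These classes were formed here and need not hold the same cells as those of the study. Markers of other cell types were low in all 12 combinations of class and library. The macrophage list of 8 genes summed to between 0.0349 and 0.123 UMIs per 10000, and the T cell list of 6 genes to at most 0.0456. Of the T cell list, Cd2, Cd3d, Cd3e and Cd3g were at 0 UMIs in all 6 plaque combinations. Lck and Trac gave 29 UMIs in fibromyocyte-like ApoE-/- cells, in 9.82% of the cells, and 7 in those of the other library, in 5.30%. The list of 10 endothelial genes summed to between 0.170 and 1.15, highest in fibromyocyte-like cells, where both libraries had UMIs of Cdh5 and the Trf2T188A/ApoE-/- library had none of Cldn5. The lists of 4 Schwann cell and 4 brown adipocyte genes summed to at most 0.226 and 0.415.

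Because 1 library stood for each genotype, no comparison below has a test across animals. A level is the UMIs of a gene per 10000 UMIs of the cells of a class, a difference is the log2 ratio of 2 levels, and its 95% interval covers counting error only. A ratio was computed for genes with at least 100 UMIs over the cells compared, and a gene was counted as higher or lower when its ratio passed 0.25 on the log2 scale. Over the 3 plaque classes 9 members stayed under 100 UMIs (Cox6a2, Cox6c2, Cox7a1, Cox7b2, Cox8b, Cox8c, Ndufa11b, Ndufb4c and Ndufs6b), and over the 3 ligation classes 4 did (Cox6a2, Cox7a1, Ndufa11b and Ndufs6b). Of the members, Cox6c2, Ndufb4c, Ndufa11b and Ndufs6b are annotated as processed pseudogenes. Reads of 11 members could not be placed with certainty because at least 25% of the last 300 bases of their transcript are found in another gene. Among them were Atp5g2 (98.3%), Cox7c (99.2%), Atp5l (68.5%), Ndufs3 (51.0%) and Cox6c (35.7%). The symbols Atp5md, Atp5o, Atp5o.1 and Atp5pb could not be matched to a single annotated gene, so Atp5o and Atp5o.1 are uncertain as well.

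Promoters are shown because binding sites for a few factors are known to recur in front of respiratory genes. Whether such sites bear on the levels described below was not tested. A promoter of 300 bases (250 before and 50 after the start, RefSeq, GRCm38.p6) was at hand for 76 of the 98 members. The letters GCATGCGC, the core of the site of NRF1 (nuclear respiratory factor 1), were found on either strand in 12 of these 76 (15.79%) and in 3.05% of 27025 promoters. The letters CCGGAAG of ETS factors such as GABP were found in 19 members (25%) and in 9.93% of all promoters, and AAGATGGCG, a YY1 site, in 8 members (10.53%) and in 1.64%. TATAAA, by contrast, was in 8 members (10.53%) and in 15.67% of all promoters. A match is a description of letters and not of binding, and the 27025 promoters were not limited to genes read in these cells.

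In the following 120 bases before the RefSeq start, read 5' to 3' on the strand of the gene, capitals mark these letters. Sdhb, the iron-sulfur subunit of complex II (chr4:140961151-140961270, plus strand), holds the NRF1 letters, Atp5j, coupling factor 6 of complex V (chr16:84834977-84835096, minus strand), holds the YY1 and then the ETS letters, and Uqcr11, a small subunit of complex III (chr10:80406822-80406941, minus strand), holds the ETS letters.
Sdhb: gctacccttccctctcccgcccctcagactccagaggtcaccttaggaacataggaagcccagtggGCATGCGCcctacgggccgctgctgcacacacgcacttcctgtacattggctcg
Atp5j: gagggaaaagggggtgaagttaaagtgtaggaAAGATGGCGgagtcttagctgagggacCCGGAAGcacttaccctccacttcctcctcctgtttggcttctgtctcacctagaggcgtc
Uqcr11: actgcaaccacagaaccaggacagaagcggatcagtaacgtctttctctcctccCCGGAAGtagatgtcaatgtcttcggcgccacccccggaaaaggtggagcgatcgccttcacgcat

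The share of a cell's RNA that came from the members differed between cell states, and of the plaque classes it was highest in contractile-like cells. Summed over all members, the level in plaque was 203.8 UMIs per 10000 in contractile-like cells of the ApoE-/- library, 149.2 in fibromyocyte-like cells and 95.6 in chondrocyte-like cells. In the Trf2T188A/ApoE-/- library the same order was read at 204.7, 137.5 and 112.8. Median depth went the other way, at 20842.5, 35165 and 36053 UMIs in these classes of the ApoE-/- library. It was 23768.5, 29335.5 and 32841 in those of the Trf2T188A/ApoE-/- library. A level is a share, so a lower level need not mean fewer UMIs of the members in a cell. The Pln Sncg Notch3-like class, named for its leading genes, was near contractile-like cells at 196.5 and 200.5. Complement and acute-phase-like cells were lower at 132.6 and 132.2, and long-transcript-like cells were lowest at 67.9 and 62.6, with a median depth of 8271.5 and 7627 UMIs that was far below that of the other classes.

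In ligation the summed level was 155.3 UMIs per 10000 in contractile-like, 156.2 in remodelling-like and 120.3 in de-differentiated-like cells of the control library. In the Trf2T188A library it was 180.1, 169.8 and 138.1, above control in these 3 classes. The level was 130.3 and 145.3 in endothelial-like cells and 160.3 and 149.5 in immune-like cells, the latter from only 18 control and 58 Trf2T188A cells. Cells of a class varied widely: in contractile-like ApoE-/- cells the members made up between 0.0464% and 3.39% of a cell's UMIs, with a median of 2.04%, and in chondrocyte-like ApoE-/- cells between 0.127% and 1.78%, with a median of 0.885%.

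**Figure D1:**
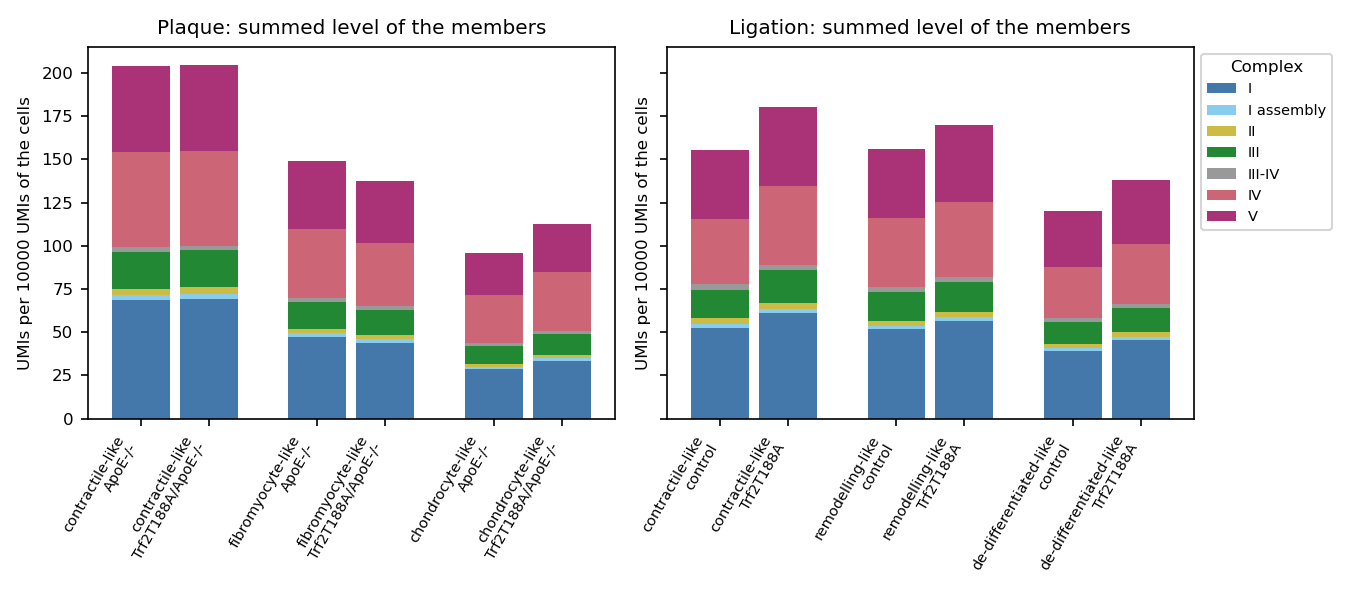
Stacked bars show the summed level of the members in UMIs per 10000 UMIs of the cells, by complex, for the 3 cell classes compared in each library of plaque (left) and ligation (right). Bars in plaque fall from 203.8 in contractile-like to 95.6 in chondrocyte-like ApoE-/- cells, and in these 3 ligation classes each Trf2T188A bar is above its control bar.

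Chondrocyte-like plaque cells had lower levels of nearly all members than contractile-like cells, in all 5 complexes. In the ApoE-/- library 85 of 88 members tested were lower and 3 higher, where 57% of 9764 genes were lower and 22.5% higher. In the Trf2T188A/ApoE-/- library 81 of 84 were lower and 2 higher, where 56.5% of 7803 genes were lower and 21.9% higher. Among abundant genes, those with at least 1 UMI per 10000 on average, 54 of 55 members were lower in the ApoE-/- library and 1 higher, where 55% of 1559 genes were lower and 27.1% higher, and 56 of 57 were lower and 1 higher in the Trf2T188A/ApoE-/- library, where 52.1% of 1586 genes were lower and 27.9% higher. The median log2 ratio of the members was -1.16 and -0.96 in the ApoE-/- and Trf2T188A/ApoE-/- libraries. The median of all genes was itself shifted, to -0.39 and -0.38, and relative to it the members' medians were -0.77 and -0.58. Of 84 members tested in both libraries, 81 were lower in both and 0 moved in opposite directions. The same counts over all genes are not given here.

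By complex, the medians in the ApoE-/- library were -1.28 for complex I, -1.02 for complex II, -1.33 for complex III, -1.14 for complex IV and -1.01 for complex V. In complex I, whose core subunits carry the electrons from NADH to ubiquinone, Ndufv1, the NADH-binding subunit, was read at 0.854 UMIs per 10000 in contractile-like and 0.256 in chondrocyte-like ApoE-/- cells, and at 0.843 and 0.281 in the other library. Its log2 ratio was -1.74 (-2.07 to -1.42) and -1.59 (-1.98 to -1.21). The core subunits Ndufs1, Ndufs3, Ndufs7, Ndufs8 and Ndufv2 were lower as well, between Ndufs7 at -1.54 and Ndufs1 at -0.97 in the ApoE-/- library. Ndufv3, an accessory subunit of the same arm, had the lowest ratio of complex I in both libraries, -1.96 and -2.02, and Ndufc2 the one nearest 0, -0.45 in each.

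Succinate dehydrogenase, complex II, differed among its 4 subunits. Sdhc, a membrane anchor, was read at 1.14 UMIs per 10000 in contractile-like and 0.289 in chondrocyte-like ApoE-/- cells and at 1.13 and 0.281 in the Trf2T188A/ApoE-/- library. Its log2 ratio of -1.98 (-2.29 to -1.68) and -2.01 (-2.40 to -1.64) was the lowest of all members in the ApoE-/- library. Sdha, the flavoprotein, was at -0.73 and -0.72, Sdhb at -1.29 and -1.18, and Sdhd, the other anchor, at -0.75 and -0.63, so that both anchors were lower but by different amounts.

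In complex III, Uqcrfs1, the Rieske iron-sulfur protein, was at -1.44 and -1.11, Uqcrc1 and Uqcrc2, the core proteins, at -1.55 and -1.51 and at -0.89 and -0.71. In complex V, Atp5b, the catalytic beta subunit, was read at 4.44 and 4.48 UMIs per 10000 in contractile-like cells and at 1.61 and 1.77 in chondrocyte-like cells, a log2 ratio of -1.47 (-1.60 to -1.34) and -1.34 (-1.49 to -1.19). Atp5a1, the alpha subunit, was at -1.01 and -1.12 and Atp5c1, the gamma subunit of the central stalk, at -0.98 and -0.76. Both subunits of the catalytic head were thus lower in both libraries.

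Fibromyocyte-like cells lay between these states. Of the members, 61 of 88 were lower and 3 higher than in contractile-like cells in the ApoE-/- library, where 32% of 10328 genes were lower and 33.4% higher. In the Trf2T188A/ApoE-/- library 74 of 84 were lower and 2 higher, where 35.3% of 8536 genes were lower and 30.7% higher. Of the abundant members, 48 of 60 and 55 of 61 were lower and 0 higher in the ApoE-/- and Trf2T188A/ApoE-/- libraries, where 37.6% and 41.1% of abundant genes were lower and 29.6% and 27.5% higher. The member medians were -0.44 and -0.58 and those of all genes 0.01 and -0.04. Of 84 members tested in both libraries, 61 were lower in both, and the same count over all genes is not given here. The lowest ratios were those of Ndufv3 (-1.15 in each library) and Sdhc (-0.88 and -1.39), which were also at the bottom in chondrocyte-like cells. Sdhd was at 0.05 and -0.09 and Uqcrq, a small subunit of complex III, at 0.15 and -0.09, all within 0.25 of 0.

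**Figure D2:**
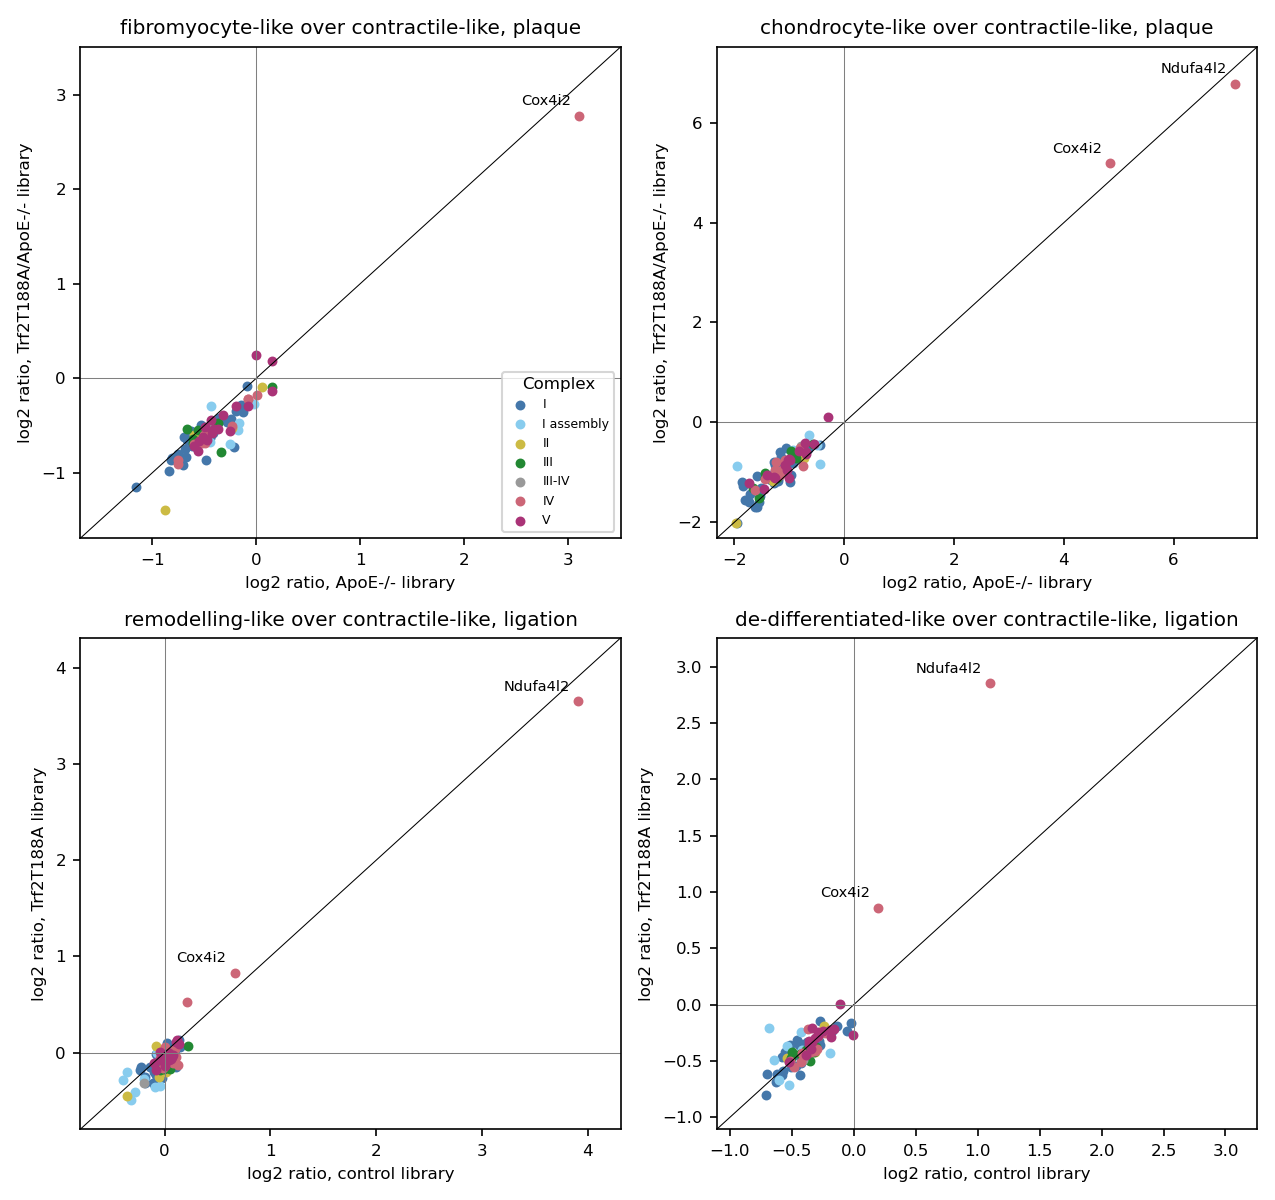
Each point is the log2 ratio of a member between a cell state and contractile-like cells of the same library, plotted for one library against the other and coloured by complex. Most points lie below 0 on both axes for chondrocyte-like, fibromyocyte-like and de-differentiated-like cells and around 0 for remodelling-like cells, with Cox4i2 and Ndufa4l2 above the rest where they were tested.

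Other genes of energy metabolism did not all share the difference. Of 15 genes of the citric acid cycle, 14 were lower in chondrocyte-like than contractile-like cells in each library (medians -1.32 and -1.04), with Suclg2 lowest at -2.10 and -1.78 and Pdhb highest at -0.20 in the ApoE-/- library. Of 15 glycolysis genes, 9 were lower and 5 higher in each library, where 57% and 56.5% of all genes were lower, with medians of -0.35 and -0.43, and Hk1, hexokinase 1, was highest at 1.30 and 1.46. The 13 genes encoded on mitochondrial DNA had medians of -0.67 and -0.70, and of 79 cytosolic ribosomal protein genes tested the medians were -0.15 and 0.10. Cyc1 and Cycs, cytochromes c1 and c, were lower as well, at -1.49 and -1.24 in the ApoE-/- library. Of 40 assembly factors that the choice of symbols does not cover, 24 of 36 tested were lower and 2 higher in that library, with a median of -0.49, while 57% of all genes tested were lower.

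Among 11 regulators of the pathway, 8 reached the minimum count in chondrocyte-like against contractile-like ApoE-/- cells, of which 6 were lower and 1 higher, beside 57% and 22.5% of all genes. Pprc1 was highest at 0.37 and Ppargc1b lowest at -1.39. In the other library Nrf1 was highest at 0.79 and Yy1 lowest at -0.68, with 3 of 6 lower and 1 higher, beside 56.5% and 21.9% of all genes. Members with and without the promoter letters had close medians in the ApoE-/- library: -1.14 with and -1.22 without the ETS letters, -1.19 and -1.18 for YY1, and -1.21 and -1.18 for NRF1. In the Trf2T188A/ApoE-/- library the 11 members with the NRF1 letters had a median of -1.18 and the 58 without them -0.87. The medians there were -0.80 with and -0.98 without the ETS letters, and -0.966 and -0.955 for YY1. The direction for NRF1 varied between comparisons with contractile-like cells. It was -0.37 with and -0.46 without in fibromyocyte-like ApoE-/- cells, and -0.43 and -0.36 in de-differentiated-like Trf2T188A cells.

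Cox4i2 and Ndufa4l2 are second copies of 2 subunits of complex IV. Unlike most other members, both were higher in chondrocyte-like than in contractile-like plaque cells. Cox4i2 (chr2:152754173-152765037, plus strand, protein coding) encodes the alternative form of subunit IV and is known from lung and from cells that respond to low oxygen. Its common partner is Cox4i1 (chr8:120668222-120674207, plus strand). Ndufa4l2 (chr10:127514967-127517154, plus strand) is a paralogue of Ndufa4 (chr6:11900292-11907497, minus strand) and a known target of hypoxia-inducible factor. Positions are those of GRCm38, and none of the 4 genes shared its last 300 bases with another gene.

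The level of Cox4i2 was 0.126 UMIs per 10000 in contractile-like, 1.08 in fibromyocyte-like and 3.60 in chondrocyte-like ApoE-/- cells. In the Trf2T188A/ApoE-/- library it was 0.133, 0.915 and 4.86. Over the same classes Cox4i1 went from 9.92 to 5.88 and 3.65 and from 9.59 to 5.28 and 4.39. The log2 ratio of Cox4i2 between chondrocyte-like and contractile-like cells was 4.84 (4.60 to 5.08) and 5.19 (4.86 to 5.54), while that of Cox4i1 was -1.44 and -1.13. The 2 genes thus lay on opposite sides of 0 in both libraries.

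As a share of the UMIs of Cox4i1 and Cox4i2 together, Cox4i2 made up 1.25% (1.07 to 1.46, exact binomial) and 1.37% (1.09 to 1.70) in contractile-like cells. It made up 15.5% and 14.8% in fibromyocyte-like cells and 49.7% (47.7 to 51.7) and 52.6% (50.5 to 54.7) in chondrocyte-like cells. Its UMIs were spread over most chondrocyte-like cells, 73 of 82 and 56 of 63, against 105 of 606 and 55 of 258 contractile-like cells. After each cell was sampled down to 8000 UMIs, which left out 4 and 6 chondrocyte-like and 11 and 22 contractile-like cells, a UMI of Cox4i2 was found in 80.8% and 84.2% of chondrocyte-like cells and in 8.57% and 7.63% of contractile-like cells. The share of Cox4i2 was at most 10.5% in the other named plaque classes, the complement and acute-phase-like class of the Trf2T188A/ApoE-/- library being the highest of them.

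Ndufa4l2 was nearly absent from contractile-like plaque cells, with 4 UMIs in 606 cells and 3 in 258. In chondrocyte-like cells 144 and 129 UMIs were counted, levels of 0.429 and 0.549 per 10000, and its share of the UMIs of Ndufa4 and Ndufa4l2 was 21.8% and 22.7% against 0.0649% and 0.104%. The log2 ratio was 7.12 (5.73 to 9.01) and 6.78 (5.20 to 9.08), while Ndufa4 went from 4.75 to 1.54 and from 4.78 to 1.87 UMIs per 10000 (-1.63 and -1.36). These UMIs sat in few cells: 29 of 82 ApoE-/- and 21 of 63 Trf2T188A/ApoE-/- cells had any, and 10 cells held 79.2% and 84.5% of them, so the counting intervals understate the spread between cells. Ndufa4l2 reached the minimum of 100 UMIs only through the chondrocyte-like cells, so its ratio could not have been near 0 and is given as a description.

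Fibromyocyte-like cells had 132 and 74 UMIs of Ndufa4l2, a share of 6.88% and 6.69%, with 10 cells holding 78.8% and 78.4%. Outside the 3 classes compared, Pln Sncg Notch3-like cells had Ndufa4l2 at 0.519 and 0.970 UMIs per 10000. These levels were above those of chondrocyte-like cells, 0.429 and 0.549. The share of Ndufa4l2 was 11.3% and 20.2% in Pln Sncg Notch3-like cells, from 10 of 42 and 5 of 23 cells. It was 4.79% and 9.61% in complement and acute-phase-like cells. The latter came from 11 of 112 and 8 of 86 cells, and a single cell held 18 of the 42 and 37 of the 81 UMIs. The only fibroblast-like Trf2T188A/ApoE-/- cell had 5 UMIs of Ndufa4l2 and 3 of Ndufa4. No plaque class was at hand in which these genes should be absent, so a low share of cells with a UMI of either gene, as in contractile-like cells, cannot be told apart from free RNA.

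**Figure D3:**
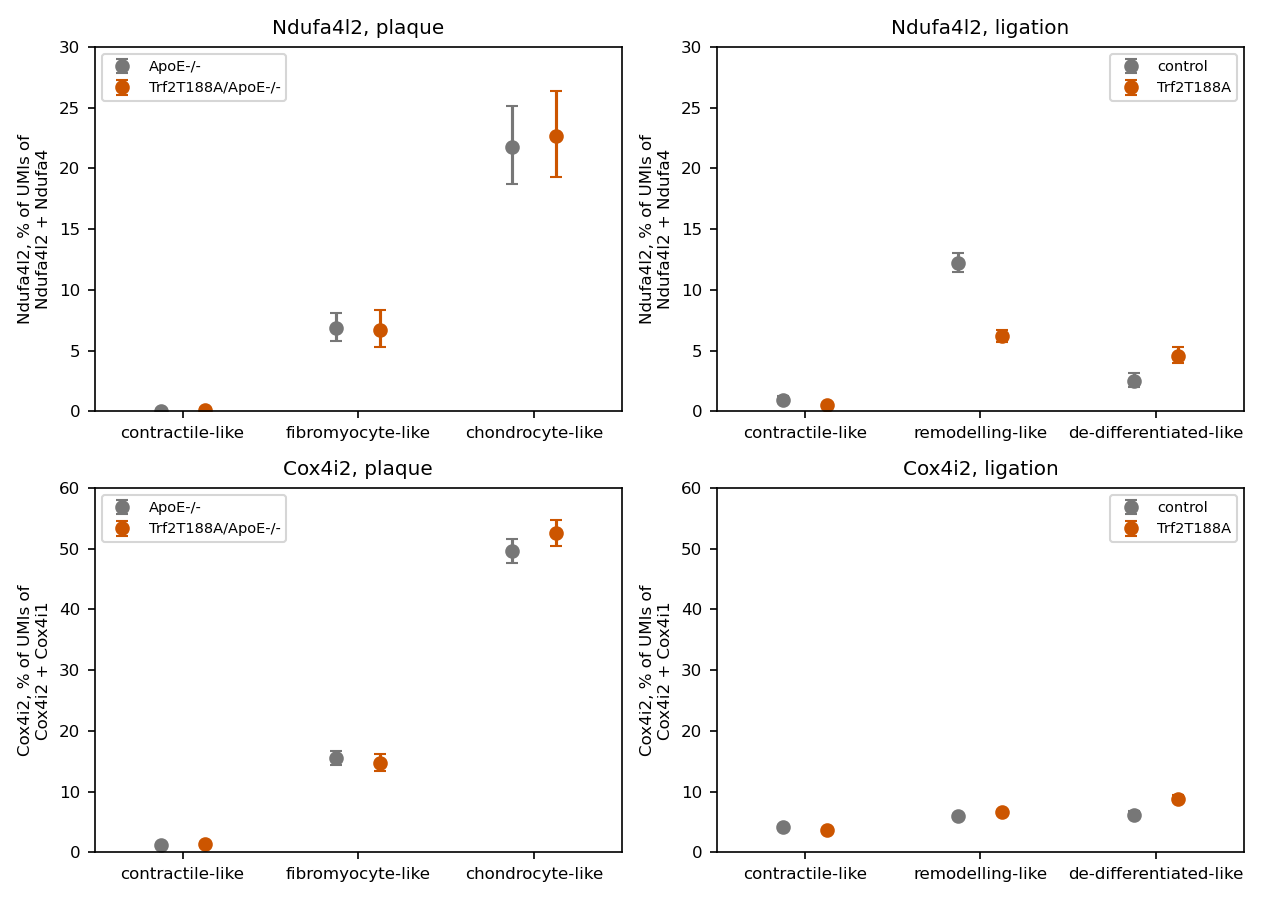
Points show the percentage of UMIs of a pair that came from the second copy, Ndufa4l2 of Ndufa4 and Ndufa4l2 (top) and Cox4i2 of Cox4i1 and Cox4i2 (bottom), by cell class and library, with exact 95% binomial intervals of counting error. Of the 3 plaque classes plotted, both shares are highest in chondrocyte-like cells, at 21.8% and 22.7% and at 49.7% and 52.6%, and in ligation Ndufa4l2 is highest in remodelling-like control cells at 12.2%.

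The remaining second copies were rare. Cox6b2, known from testis, made up 0.787% and 0.607% of its pair with Cox6b1 in contractile-like plaque cells, 2.34% and 3.23% in fibromyocyte-like and 2.39% (1.31 to 3.98) and 4.27% (2.70 to 6.40) in chondrocyte-like cells. Cox7a1, a form of heart and skeletal muscle, had 29 UMIs in contractile-like ApoE-/- and 2 in Trf2T188A/ApoE-/- cells. The list of 8 cardiomyocyte and skeletal muscle markers was also higher in the former, at 1.02 UMIs per 10000 against 0.578, with Myl2 at 0 in both; its part in the Cox7a1 count was not tested. Cox6a2 and Cox8b, also forms of muscle, and Cox7b2 and Cox8c had between 0 and 4 UMIs over the plaque classes. For Cox6a2 a count of 0 in contractile-like cells allows a share of up to 0.0833% and 0.183% of its pair with Cox6a1 (exact binomial).

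The c-ring of ATP synthase can be built from 3 genes for an identical mature protein, and their balance also differed. Atp5g1 made up 50.1% and 52.9% of the UMIs of Atp5g1, Atp5g2 and Atp5g3 in contractile-like cells and 60.6% and 61.8% in chondrocyte-like cells. Atp5g3 went from 45.5% and 43.6% to 33.2% and 32.3%. Atp5g1 was thereby among the members least lower in chondrocyte-like cells, at -0.55 and -0.43, and Atp5g3 was at -1.29 and -1.09. Atp5g2 stayed between 3.53% and 6.22% in both classes, with reads that are uncertain. Atp5o, also counted as higher in the ApoE-/- library (1.69), rested on 91 and 76 UMIs and on an unplaced symbol, while Atp5o.1 was at -0.70.

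In ligation, de-differentiated-like cells had lower levels of most members than contractile-like cells. In the control library 71 of 86 members were lower and 1 higher, where 30.6% of 10383 genes were lower and 21.8% higher, and in the Trf2T188A library 68 of 88 were lower and 3 higher, where 31.2% of 11338 genes were lower and 23.7% higher. Of the abundant members, 44 of 51 in control and 46 of 57 in Trf2T188A were lower and 0 higher, where 30.2% and 33.3% of abundant genes were lower and 22.4% and 21.7% higher. With the study's formula, which adds a pseudocount of 1 to each mean, 28 members in control and 31 in Trf2T188A were lower. The shares of all genes under that formula are not given here. The member medians were -0.36 and -0.38 and those of all genes -0.07 and -0.06. Of 86 members tested in both libraries, 64 were lower in both, and the same count over all genes is not given here. Complex III was lower throughout, 8 of 8 in each library, and Ndufa11, an accessory subunit of complex I, had the lowest ratio of all, -0.71 and -0.80.

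Ndufs1, a core subunit of complex I, was at -0.06 in the control and -0.23 in the Trf2T188A library. Atp5b was at -0.34 and -0.39, Sdhc at -0.53 and -0.47 and Cox4i1 at -0.42 and -0.50. The citric acid cycle list had medians of -0.38 and -0.44 in the 2 libraries, the glycolysis list -0.41 and -0.38, the mitochondrially encoded genes -0.39 and -0.31 and the ribosomal protein genes -0.17 and -0.19.

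Remodelling-like cells were close to contractile-like cells. In the control library 5 of 87 members were lower and 2 higher, where 23.1% of 10858 genes were lower and 11.3% higher, and in the Trf2T188A library 13 of 89 were lower and 4 higher, where 27.6% of 11704 genes were lower and 14.2% higher. Of the abundant members, 0 of 55 in control and 4 of 58 in Trf2T188A were lower and 0 higher, where 10.9% and 17.4% of abundant genes were lower and 12.3% and 14.1% higher. The medians were 0.00 and -0.09, beside -0.06 and -0.09 for all genes. Sdha was an exception, read at 0.771 in contractile-like and 0.603 in remodelling-like control cells and at 0.783 and 0.574 in Trf2T188A cells, a log2 ratio of -0.35 (-0.47 to -0.24) and -0.45 (-0.55 to -0.35). Of the 8 genes for the assembly of complex I, 4 and 6 were lower, with Ndufaf3 at -0.39 in control and Ndufaf6 at -0.49 in Trf2T188A cells.

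Ndufa4l2 was again higher in remodelling-like and de-differentiated-like than in contractile-like cells. Its level was 0.0309 UMIs per 10000 in contractile-like, 0.465 in remodelling-like and 0.0663 in de-differentiated-like control cells, and 0.0209, 0.262 and 0.151 in Trf2T188A cells. The log2 ratio of remodelling-like to contractile-like cells was 3.91 (3.49 to 4.37) and 3.65 (3.27 to 4.06). Contractile-like cells held 47 UMIs of Ndufa4l2 in control and 60 in Trf2T188A, and de-differentiated-like cells 71 and 187. The comparison of these classes reached the minimum count only through the de-differentiated-like cells. A ratio near 0 was thus not possible there, and the higher level of Ndufa4l2 in de-differentiated-like cells is given as a description. In remodelling-like cells the UMIs were spread over 194 of 2042 and 144 of 1911 cells, and 10 cells held 20.4% and 26.8% of them. In immune-like cells of the same libraries, which are not smooth muscle cells and had a median depth of 6177.5 and 8458.5 UMIs, 0 of 18 control and 0 of 58 Trf2T188A cells had a UMI of Ndufa4l2, which allows a share of up to 18.5% and 6.16% (exact binomial). In endothelial-like cells Ndufa4l2 was at 0.0374 and 0.0647 UMIs per 10000, above contractile-like cells, from 1 of 62 control and 1 of 65 Trf2T188A cells. Of interferon-responding-like cells, 3 of 121 control and 0 of 73 Trf2T188A cells had a UMI of Ndufa4l2. In contractile-like, remodelling-like and de-differentiated-like cells Cox4i2 was at 0.405, 0.641 and 0.464 in control. In Trf2T188A it was at 0.365, 0.648 and 0.662, and its shares of its pair in both libraries were between 3.63% and 8.83%. A UMI of Cox4i2 was found in 1 of the 18 and 3 of the 58 immune-like cells, 0.592% and 1.20% of its pair.

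Between genotypes, plaque cells of the contractile-like class had near equal levels of the members. Of 87 members 1 was higher in Trf2T188A/ApoE-/- cells and 2 lower, where 8.35% of 9920 genes were higher and 11.3% lower, and the median was 0.01 for the members and for all genes. Of 63 abundant members 0 were higher or lower, where 2.09% of 1677 abundant genes were higher and 3.34% lower. Ndufaf1, an assembly factor of complex I, was the one higher (0.101 against 0.130 UMIs per 10000 in ApoE-/- and Trf2T188A/ApoE-/- cells, 0.36, -0.06 to 0.78). Atp5g2 (-0.28, -0.62 to 0.05) and Atp5o (-0.70, -1.39 to -0.06), both with uncertain reads, were the 2 lower. The core subunit Ndufs8 was at 0.24 (0.08 to 0.39), the highest of the core subunits of complex I named above, and Ndufs3 the lowest at -0.06. In contrast, 12 of the 13 mitochondrially encoded genes were lower, with a median of -0.49.

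In fibromyocyte-like cells 1 of 86 members was higher in Trf2T188A/ApoE-/- cells and 7 lower, where 11.2% of 8790 genes were higher and 19.1% lower. Of 56 abundant members 0 were higher and 2 lower, where 8.7% of 1633 abundant genes were higher and 11.1% lower. The median was -0.13, beside -0.05 for all genes and -0.14 for ribosomal protein genes. Sdhc was lowest, at 0.619 UMIs per 10000 in ApoE-/- and 0.431 in Trf2T188A/ApoE-/- cells (-0.52, -0.79 to -0.26), and the others lower were Ndufa11 (-0.30), Ndufaf7 (-0.29), Uqcrc1 (-0.29), Ndufs8 (-0.28), Ndufa10 (-0.27) and Atp5l (-0.27). Thinning to 8000 UMIs raised the number lower to 29, over 1.5 times the count at full depth. The share of all genes lower after thinning is not given here.

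In chondrocyte-like cells, a comparison added after its values were seen, 39 of 84 members were higher and 2 lower in Trf2T188A/ApoE-/- cells, where 21.8% of 5896 genes were higher and 20.2% lower. Of 40 abundant members 19 were higher and 0 lower, where 23.9% of 1356 abundant genes were higher and 14.8% lower. The median was 0.22 beside 0.03 for all genes, and the ribosomal protein genes were at 0.23 and the mitochondrially encoded genes at -0.56. Cox4i2 was at 0.43 (0.32 to 0.55) and Cox4i1 at 0.27 (0.14 to 0.39). At 0.5 times the clustering resolution, where this class held 235 and 185 cells and no fibromyocyte-like class was formed, 3 members were higher and 5 lower. The shares of all genes at that resolution are not given here.

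**Figure D4:**
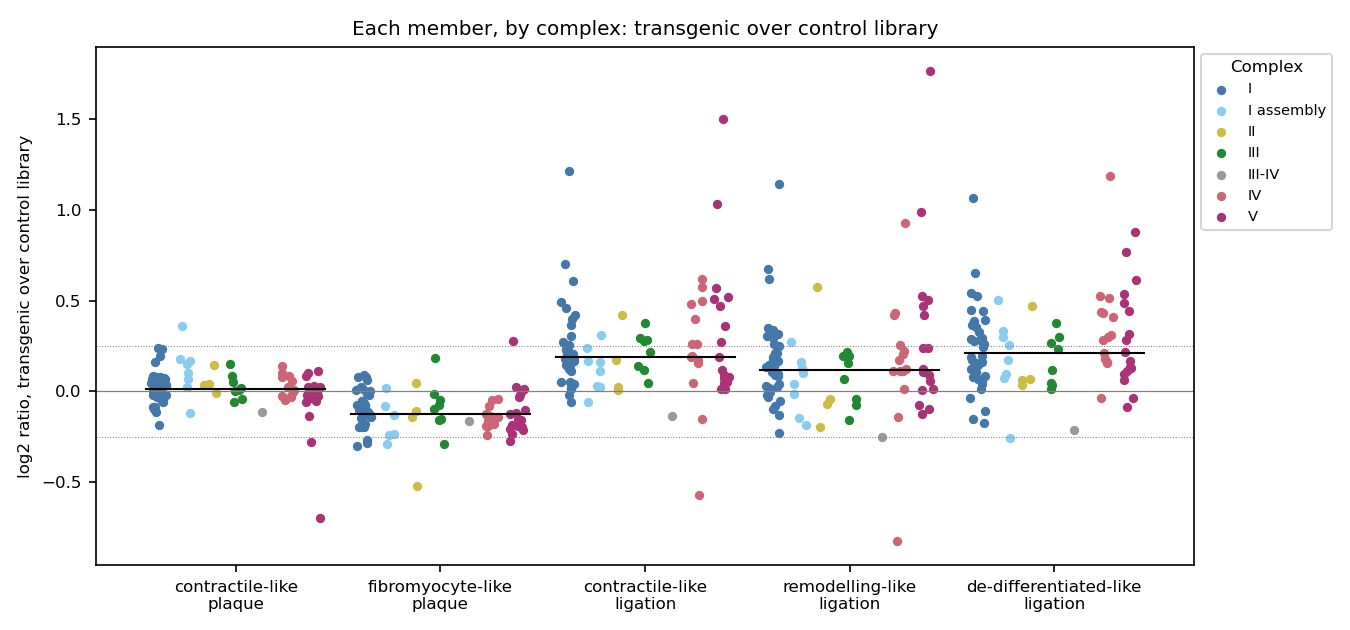
Points show the log2 ratio of each member between genotypes, Trf2T188A/ApoE-/- over ApoE-/- in plaque and Trf2T188A over control in ligation, by cell class and complex. Medians are 0.01 and -0.13 in contractile-like and fibromyocyte-like plaque cells and 0.19, 0.12 and 0.21 in contractile-like, remodelling-like and de-differentiated-like ligation cells.

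In ligated arteries more members were higher than lower in the Trf2T188A library, though most did not pass the limit. In contractile-like cells 33 of 88 members were higher and 1 lower, where 9.35% of 11374 genes were higher and 10.9% lower. In remodelling-like cells 21 of 88 were higher and 2 lower, where 12.6% of 11227 genes were higher and 14.7% lower. In de-differentiated-like cells 41 of 88 were higher and 1 lower, where 12.4% of 10123 genes were higher and 12.1% lower. Of the abundant members, 24 of 58, 10 of 56 and 21 of 48 were higher and 0, 1 and 0 lower in the same order of classes, where 7.08%, 10.4% and 9.3% of abundant genes were higher and 2.96%, 10.2% and 8.67% lower. With the study's formula, which adds a pseudocount of 1 to each mean, 13, 8 and 8 members were higher. The shares of all genes under that formula are not given here, so these counts cannot be set beside the shares above. The member medians were 0.19, 0.12 and 0.21 and those of all genes -0.01, -0.03 and -0.01.

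Members with the highest ratios included several small subunits. Ndufb4, an accessory subunit of complex I, was read at 0.121, 0.124 and 0.120 UMIs per 10000 in contractile-like, remodelling-like and de-differentiated-like control cells and at 0.281, 0.272 and 0.25 in Trf2T188A cells. Its log2 ratio was 1.21 (0.98 to 1.45), 1.14 (0.92 to 1.36) and 1.06 (0.76 to 1.37). Ndufa1, another accessory subunit, was at 0.70, 0.62 and 0.65 and Ndufa3 at 0.61, 0.67 and 0.52. Atp5g2 (1.5, 1.77 and 0.88), Atp5l, subunit g of ATP synthase (1.03, 0.99 and 0.77), and Cox6c (0.58, 0.43 and 0.52) were high too, and all 3 have uncertain reads. In complex II only Sdhd passed the limit, at 0.42, 0.57 and 0.47, while Sdha was at 0.02, -0.07 and 0.03.

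Several of the main subunits did not pass the limit in any class. In the head of ATP synthase Atp5b was at 0.02, -0.10 and -0.04 and Atp5a1 at 0.01, -0.13 and -0.09. Of the core subunits of complex I, Ndufv1 was at 0.01, -0.23 and -0.17 and Ndufs1 at 0.02, -0.05 and -0.15, while Ndufs8 (0.15, 0.15 and 0.29) and Ndufs3 (0.20, 0.14 and 0.28, with uncertain reads) passed it in de-differentiated-like cells. Uqcrc1 was at 0.04, -0.16 and 0.04 and Cox4i1 at 0.04, -0.14 and -0.04. Cox7a2l, placed under complexes III and IV together, was lower in all classes, at -0.13, -0.25 and -0.21, passing the limit in remodelling-like cells. Ndufa4l2 was at -0.57 (-1.14 to 0.01) in contractile-like, -0.83 (-0.98 to -0.68) in remodelling-like and 1.19 (0.78 to 1.60) in de-differentiated-like cells, and Cox4i2 at -0.15, 0.02 and 0.51. In de-differentiated-like cells 10 cells held 45.1% of the Ndufa4l2 UMIs of control and 46.5% of those of Trf2T188A.

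Transcript length moved with these genotype ratios, in the members and in all genes. Members with a transcript under 800 bases had medians of 0.26, 0.17 and 0.30 in contractile-like, remodelling-like and de-differentiated-like cells (n = 39), those of at least 800 but under 1600 bases 0.17, 0.11 and 0.17 (n = 29), and those of 1600 bases or more 0.04, -0.08 and 0.04 (n = 17). Genes of all kinds with at least 1 UMI per 10000 had medians of 0.17, 0.14 and 0.15, then 0.07, 0.05 and 0.06, and then -0.03, -0.07 and -0.06 in the same 3 length groups. Across genes, which share libraries and depth, Spearman's rho of length and log2 ratio was -0.51, -0.42 and -0.44 over 85 members and -0.52, -0.43 and -0.44 over 1605, 1547 and 1565 genes. The 9 members with at least 25% of the 3' end shared had medians of 0.49, 0.32 and 0.43 and the 76 others 0.18, 0.11 and 0.18. Within 1 library per genotype, genotype, depth and library preparation cannot be told apart.

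In plaque rho over members was 0.27 in contractile-like (n = 83), 0.07 in fibromyocyte-like (n = 82) and -0.12 in chondrocyte-like cells (n = 80), and over all genes it was -0.15, 0.23 and -0.31. Other lists differed among themselves in ligation. The mitochondrially encoded genes had medians of 0.31, 0.19 and 0.35, the ribosomal protein genes 0.06, 0.06 and 0.05, the citric acid cycle genes 0.09, -0.05 and 0.04 and the glycolysis genes -0.05, -0.03 and 0.01. Cox17, a copper chaperone of complex IV assembly, was the highest of the 40 assembly factors in each class, at 0.84, 0.67 and 0.74. Of 11 regulators, 0 were higher in any of the 3 classes, where 9.35%, 12.6% and 12.4% of all genes tested were higher, so that the count is near these shares. Yy1 was the lowest of them in de-differentiated-like cells, at -0.30.

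**Figure D5:**
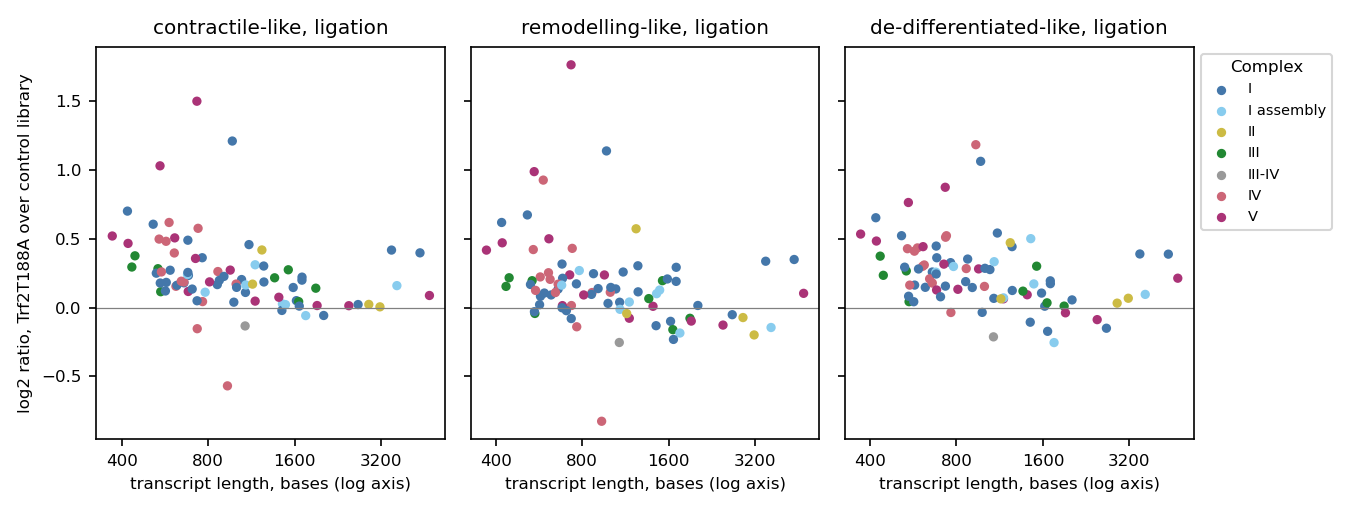
Each point is a member, placed by the length of its transcript in bases (log axis) and by its log2 ratio of Trf2T188A over control in 1 of the 3 ligation classes, and coloured by complex. Short transcripts lie higher, with medians of 0.26, 0.17 and 0.30 under 800 bases against 0.04, -0.08 and 0.04 from 1600 bases on.

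Within a class and library the members' share of a cell's UMIs moved with that of ribosomal protein genes. Spearman's rho over cells was between 0.40 (2042 remodelling-like control cells) and 0.88 (132 fibromyocyte-like Trf2T188A/ApoE-/- cells). With the share of mitochondrially encoded genes it was between -0.46 (163 fibromyocyte-like ApoE-/- cells) and 0.02 (2042 remodelling-like control cells), and with depth between -0.22 and 0.53. These shares have 1 denominator, the UMIs of the cell, and cells of a library are not replicates, so the values describe these libraries only.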

How the data were processed

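Values deposited by the authors were linear signal values, with the UMIs of each cell scaled to a sum of 10000. Per the labels, reads had been aligned to GRCm38 with Cell Ranger 7.0.0 and processed with Seurat 4.3.0 in R 4.2.2 (plaque), and with Cell Ranger 6.1.2, Seurat 3.2.1 and R 3.6.2 (ligation). In every cell the values were whole multiples of 1 UMI (within 0.01), so UMI counts were recovered. Cells were used as deposited, without a doublet filter, since how doublets had been treated is not given in the sources used here.

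The libraries of an experiment were clustered together without integration (Seurat 5.3.0, R 4.3.3, Matrix 1.6.5) on 2000 variable genes, with 18 and 17 principal components and a resolution of 0.9 and 0.2 in plaque and ligation. Members, the other energy genes, mitochondrially encoded and ribosomal protein genes were kept out of the variable genes. A class took the name of the marker list with the highest mean log2 ratio, if that reached 0.5 and at least 3 markers did. Ratios of summed UMIs were computed without a pseudocount, with exact conditional binomial intervals of 95%, in Python 3.11.15 (scipy 1.17.1, numpy 2.4.6, matplotlib 3.10.9, pandas 2.3.3), and the computation was tested on simulated data. PCR copies are removed by the UMIs, and intervals and floors cover counting error only.

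Genes were named by role (second copies and their partners, core subunits of complex I, subunits of complex II, core subunits of complexes III and V) and as the 5 highest and lowest ratios of each comparison, though not every gene of these lists is reported here. Ndufc2, Uqcrq, Cox7a2l and Cox6c outside these lists, and the printed promoters, were chosen after their values were seen. Members and lists were chosen with earlier results of these data known. Transcript lengths, positions and shared 3' ends came from a GRCm38 annotation and promoters from RefSeq (GRCm38.p6). Alternatives were the study's averaging with a pseudocount of 1, a pseudocount of 0.1, other count minimums, centring on all genes, another denominator, thinned cells, other resolutions, members allowed among the variable genes, leaving out cells under 2000 genes, and leaving out the highest 5% of doublet scores (scanpy 1.11.5). Restricting the members by 3' end or transcript length was added after seeing the data.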

Additional observations from a re-analysis of the deposited data

Results flagged for a closer look

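The genotype ratio of 3 members passed the limit of 0.25 in opposite directions in different classes, each time with a counting interval that left out 0. Atp5l, subunit g of ATP synthase, was higher in the Trf2T188A library of all 3 ligation classes, at 1.03 in contractile-like, 0.99 in remodelling-like and 0.765 in de-differentiated-like cells, and lower in fibromyocyte-like plaque cells of the Trf2T188A/ApoE-/- library, at -0.27. Ndufa4l2 was higher in de-differentiated-like ligation cells, at 1.19, and lower in remodelling-like cells, at -0.83. Ndufs8, a core subunit of complex I, was at 0.29 in de-differentiated-like ligation cells and at -0.28 in fibromyocyte-like plaque cells. With 1 library per group these differences were not tested, and 68.5% of the 3' end of Atp5l is shared with another gene.

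Ndufb1-ps, left out of the members by its symbol, was also detected. In contractile-like cells it had 2.85 UMIs per 10000 in the ApoE-/- and 2.75 in the Trf2T188A/ApoE-/- library, and 1.25 in the control and 2.0 in the Trf2T188A library of ligation.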

How the results depend on the processing

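No paired analysis was possible because each group has 1 library and the values come from no test. Of 174 medians recomputed under the alternatives, 161 stayed within the spread allowed, 13 moved and 0 changed sign past it. With the study's averaging and a pseudocount of 1, medians moved to -0.31 (fibromyocyte-like, ApoE-/-), -0.67 and -0.59 (chondrocyte-like, ApoE-/- and Trf2T188A/ApoE-/-), -0.22 in both libraries (de-differentiated-like) and 0.10 (genotype, contractile-like ligation). Centring gave -0.77 and -0.58 for chondrocyte-like cells and -0.0064 for remodelling-like Trf2T188A cells. Thinning gave -0.74 for fibromyocyte-like Trf2T188A/ApoE-/- cells. At 0.5 times the resolution the chondrocyte-like medians were -0.57 and -0.66, and at 1.5 times the remodelling-like Trf2T188A median was -0.0215.

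Of the values other than these medians, 3479 stayed within the spread allowed, 557 moved and 5 changed sign. These 5 were values of 2 single members. Atp5g2 changed to -0.0102 and -0.046 in fibromyocyte-like Trf2T188A/ApoE-/- cells with pseudocounts of 1 and 0.1. It changed to 0.0899 in chondrocyte-like ApoE-/- cells when centred. Ndufaf7 changed to 0.13 in chondrocyte-like Trf2T188A/ApoE-/- cells when centred and to 0.0947 between genotypes in thinned de-differentiated-like cells. With the study's averaging, 13, 8 and 8 members instead of 33, 21 and 41 were higher in Trf2T188A ligation cells (contractile-like, remodelling-like, de-differentiated-like), and 28 and 31 instead of 71 and 68 were lower in de-differentiated-like cells. Members lower in remodelling-like cells ranged from 0 to 8 (control) and 0 to 14 (Trf2T188A), and those lower by genotype from 2 to 29 in fibromyocyte-like and 0 to 4 in contractile-like plaque cells. By genotype in chondrocyte-like plaque cells, members higher ranged from 3 to 43 and members lower from 0 to 5. With at least 1 UMI per 10000, where fewer genes were tested, 54 members were lower in chondrocyte-like ApoE-/- cells. Apart from the minimum of 1 UMI per 10000, shares of all genes under the alternatives are not given here. The cause of these shifts was not tested otherwise. At 0.5 times the resolution no fibromyocyte-like and no contractile-like ligation class was formed, so those comparisons gave no value.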
